A study of Homo sapiens with 12 samples.

Results

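NDRG1, ANKRD37, AKAP12 and the stanniocalcins STC1 and STC2 are 5 genes of the 19775 measured on arrays of 2 human pancreatic carcinoma cell lines. They were proposed by name with the hypoxia results of the same arrays in view, so these members were chosen from measured values, and their hypoxia changes are given as a description with no test. Each gene was found by its current symbol among the probe sets that the platform annotation ties to exactly 1 gene, which gave 13 probe sets: 1 for NDRG1, 2 for ANKRD37, 5 for AKAP12, 3 for STC1 and 2 for STC2. All 5 genes were measured, and no filter on low values was applied. The probe set with the greatest average level across the 12 arrays gave a gene's main value, and the others are described beside it.

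The 12 arrays form 4 groups of 3: FG in normoxia, FG in hypoxia, L3.6pl in normoxia and L3.6pl in hypoxia. FG and L3.6pl are known as variants of the same parental carcinoma line, L3.6pl having been selected in mice for metastasis to the liver, and each is represented here by the line alone. Cells of every group were thawed and grown in DMEM with foetal bovine serum without being passaged again. Hypoxic flasks were held at 1% oxygen, reached with nitrogen, for the final 24 h, and normoxic flasks were not treated. Values are log2 of normalized array intensity, errors of levels are the SD over 3 arrays, and a difference of 1 is a doubling.

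Cells sense oxygen through prolyl hydroxylases (the EGLN enzymes), which mark the alpha subunits of the hypoxia-inducible factors HIF1A and EPAS1 for destruction while oxygen is present. In hypoxia the factors accumulate, pair with ARNT and bind DNA at the core letters ACGTG or GCGTG. NDRG1 is a cytoplasmic stress-response protein phosphorylated by SGK1 and repressed by MYC and MYCN, and ANKRD37 is a small ankyrin-repeat protein. AKAP12, also called gravin, is a scaffold that holds protein kinase A and protein kinase C near the membrane. STC1 and STC2 are secreted glycoproteins linked to calcium and phosphate handling, and both inhibit the pappalysin proteases that free insulin-like growth factors from their binding proteins. STC2 is also known as a target of the integrated stress response, the ATF4 programme.

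The array labels fitted carcinoma cells in their epithelial markers: all 6 (EPCAM, CDH1, KRT8, KRT18, KRT19 and KRT7) had group means between 9.42 and 13.4. Of the markers of other cell types, DCN, LUM, PDGFRB and COL1A2 of fibroblasts lay between 2.58 and 5.58, and the 5 measured blood markers lay between 3.90 and 6.66. COL3A1, a fibrillar collagen gene also used as a fibroblast marker, was at 11.02 in FG and 5.60 in L3.6pl in normoxia, a difference of -5.42 (SE 0.384, adjusted p = 1.10e-05, limma), and its part in any difference between the lines below was not tested. COL1A1, another collagen gene, had group means from 8.75 to 10.91. The summed intensity of the 6 fibroblast markers ran from 2229 to 4530 in FG normoxia, 3542 to 4073 in FG hypoxia, 525 to 724 in L3.6pl normoxia and 665 to 1201 in L3.6pl hypoxia. Of the endothelial markers PECAM1 lay between 6.70 and 8.16 and the other 4 between 3.05 and 6.27. An earlier analysis of these arrays found 3 that stand apart from the rest of their groups: replicate 1 of FG normoxia, replicate 1 of L3.6pl normoxia and replicate 3 of L3.6pl hypoxia. Values without them are given where they move a result.

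The stretches upstream of the ANKRD37, AKAP12 and STC2 starts are shown because they hold the core letters that the hypoxia-inducible factors are known to bind. They come from RefSeq promoter records of assembly GRCh38.p14 and run 5′ to 3′ on the gene's own strand, and capitals mark ACGTG or GCGTG or their reverse complements CACGT or CACGC. For ANKRD37 the 250 bases before the start are given, at chr4:185396591-185396840 on the plus strand. AKAP12 has 3 starts in the table, and the 250 bases before the first (chr6:151239717-151239966) and the 100 bases before each of the others (chr6:151325431-151325530 and chr6:151341606-151341705) are on the plus strand. For STC2 the 100 bases from 250 to 151 before the start are given, at chr5:173328565-173328664 on the minus strand. NDRG1 and STC1 are named only.
ANKRD37: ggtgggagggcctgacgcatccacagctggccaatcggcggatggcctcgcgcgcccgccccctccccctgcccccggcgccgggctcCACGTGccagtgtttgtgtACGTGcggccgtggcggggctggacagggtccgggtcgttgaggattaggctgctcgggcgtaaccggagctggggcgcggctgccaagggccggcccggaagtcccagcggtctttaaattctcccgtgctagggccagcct
AKAP12 start 1: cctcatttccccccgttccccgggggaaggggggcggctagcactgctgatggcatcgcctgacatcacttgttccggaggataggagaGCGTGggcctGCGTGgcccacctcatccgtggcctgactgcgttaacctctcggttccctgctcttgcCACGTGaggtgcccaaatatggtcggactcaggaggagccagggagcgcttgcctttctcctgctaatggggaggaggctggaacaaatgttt
AKAP12 start 2: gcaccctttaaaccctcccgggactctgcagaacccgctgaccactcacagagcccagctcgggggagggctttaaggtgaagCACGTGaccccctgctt
AKAP12 start 3: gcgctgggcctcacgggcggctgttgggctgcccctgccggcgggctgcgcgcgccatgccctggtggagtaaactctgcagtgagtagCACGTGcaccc
STC2: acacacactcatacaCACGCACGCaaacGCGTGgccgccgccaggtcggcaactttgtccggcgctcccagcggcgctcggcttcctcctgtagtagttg

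The ANKRD37 stretch held CACGTG beginning 162 bases before the start, which reads ACGTG on both strands, and a further ACGTG beginning 143 bases before it. The first AKAP12 start had GCGTG beginning at 161 and 151 bases and CACGTG at 93 bases, and the other starts had CACGTG at 17 and 11 bases. The STC2 stretch held GCGTG on the minus reading at 235 and 231 bases and on the plus reading at 222 bases, and no ACGTG. Searched on both strands over the 250 bases before all 35116 starts of the table, ACGTG occurred in 18.5%, GCGTG in 32.2%, either of them in 43.2% and CACGTG in 6.34%. These matches are letters in a window, and no binding was measured here.

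NDRG1 was high in hypoxia in both lines, and its values rest on 1 probe set (200632_s_at). In FG the log2 levels were 10.28, 10.43 and 9.88 in normoxia and 12.88, 13.32 and 13.27 in hypoxia. In L3.6pl they were 11.07, 9.42 and 9.29 in normoxia and 13.51, 13.91 and 13.68 in hypoxia. Every hypoxic array lay above every normoxic array in both lines, and replicate 1 of L3.6pl normoxia stood well above its other two. The hypoxia difference was 2.96 (SE 0.386), or 7.77-fold, in FG and 3.77 (SE 0.386), or 13.7-fold, in L3.6pl, where it was 4.34 without the high normoxic array. In these bulk samples a smaller share of cells with the transcript and less of it per cell cannot be told apart. By mean the order was L3.6pl hypoxia (13.70 ± 0.202), FG hypoxia (13.15 ± 0.241), FG normoxia (10.20 ± 0.284) and L3.6pl normoxia (9.93 ± 0.989, each SD, n = 3 arrays), and only the normoxic groups overlapped.

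ANKRD37 was likewise high in hypoxia in both lines on its main probe set (227337_at). On it FG was at 6.83, 8.23 and 8.0 in normoxia and 12.21, 11.64 and 11.78 in hypoxia. L3.6pl was at 8.32, 8.30 and 8.59 in normoxia and 11.74, 11.59 and 10.44 in hypoxia. Every hypoxic array was above every normoxic array in each line, the lowest hypoxic value being replicate 3 of L3.6pl. The hypoxia difference was 4.19 (SE 0.390), or 18.3-fold, in FG and 2.85 (SE 0.390), or 7.22-fold, in L3.6pl. Without the 3 arrays that stand apart it was 3.76 in FG and 3.22 in L3.6pl. The order was FG hypoxia (11.88 ± 0.300), L3.6pl hypoxia (11.25 ± 0.712), L3.6pl normoxia (8.40 ± 0.163) and FG normoxia (7.69 ± 0.750, each SD, n = 3 arrays), with overlap between the hypoxic groups alone. The second probe set (242548_x_at) disagreed: it stayed between 3.17 and 4.09 on all arrays, with differences of -0.25 in FG and 0.19 in L3.6pl.

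AKAP12 had the fourth largest hypoxia rise of all genes in FG by its main probe set (210517_s_at). FG was at 5.18, 5.67 and 7.21 in normoxia and at 10.74, 10.85 and 10.98 in hypoxia. L3.6pl was at 6.11, 6.55 and 6.95 in normoxia and at 9.36, 9.64 and 8.71 in hypoxia. The hypoxic arrays stood clear of the normoxic ones in both lines, and within FG normoxia replicate 3 was the highest. The difference was 4.84 (SE 0.443), or 28.6-fold, in FG and 2.70 (SE 0.443), or 6.49-fold, in L3.6pl. Without replicate 3 of FG normoxia the FG difference was 5.43, and without replicate 1 of that group it was 4.42. FG hypoxia led (10.86 ± 0.123), then L3.6pl hypoxia (9.24 ± 0.478), with no overlap between them, and L3.6pl normoxia (6.54 ± 0.420) and FG normoxia (6.02 ± 1.06, each SD, n = 3 arrays) overlapped.

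The 4 other AKAP12 probe sets split. The set 227530_at changed by 2.17 in FG and 1.18 in L3.6pl, 227529_s_at by 2.81 and 1.19, and 231067_s_at by 2.02 and 0.67, with no overlap between oxygen levels in either line. In all 3 the FG change was the larger, as in the main set. The remaining set, 1555395_at, stayed between 3.61 and 4.14 on every array and differed by 0.13 in FG and 0.09 in L3.6pl.

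STC1 was set apart by cell line more than by oxygen. On the main probe set (204595_s_at) FG was at 7.82, 9.03 and 8.36 in normoxia and at 9.72, 9.98 and 9.91 in hypoxia. L3.6pl was at 12.33, 13.14 and 12.80 in normoxia and at 12.59, 12.90 and 12.78 in hypoxia. All FG hypoxic arrays lay above the FG normoxic ones, while in L3.6pl the hypoxic arrays lay inside the normoxic range. The difference was 1.47 (SE 0.277), or 2.76-fold, in FG and 0.0031 (SE 0.277, 95% interval from -0.61 to 0.62) in L3.6pl. L3.6pl hypoxia (12.76 ± 0.156) and L3.6pl normoxia (12.76 ± 0.411) overlapped, and both lay above FG hypoxia (9.87 ± 0.134) and FG normoxia (8.40 ± 0.608, each SD, n = 3 arrays), which did not overlap.

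The other STC1 probe sets kept the order of the lines and differed in the size of the L3.6pl change. The set 204596_s_at changed by 2.73 in FG and 0.65 in L3.6pl, where the hypoxic arrays were at 12.86, 12.77 and 10.66. The low value was replicate 3, which stood apart on this probe set and not on the main one. The set 204597_x_at changed by 1.11 in FG and by 0.28 in L3.6pl, from 10.50, 10.49 and 10.43 to 10.63, 10.77 and 10.85, so that its hypoxic arrays lay just above the normoxic ones.

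STC2 was the most variable of the 5 genes in normoxia. Its main probe set (203438_at) was at 10.70, 8.26 and 7.82 in FG normoxia and at 9.42, 9.63 and 9.61 in FG hypoxia. In L3.6pl it was at 9.75, 7.65 and 7.49 in normoxia and at 9.67, 10.14 and 9.48 in hypoxia. Replicate 1 was the high normoxic array in both lines and reached or passed the hypoxic level, so hypoxia and normoxia overlapped. The difference was 0.62 (SE 0.720), or 1.54-fold, in FG and 1.47 (SE 0.720), or 2.77-fold, in L3.6pl. Without the 3 arrays that stand apart it was 1.51 and 2.34. Leaving out 1 array at a time moved it between 0.069 (without replicate 3 of FG normoxia) and 1.51 in FG, and between 1.07 (without replicate 3 of L3.6pl normoxia) and 2.20 in L3.6pl. The order was L3.6pl hypoxia (9.76 ± 0.337), FG hypoxia (9.55 ± 0.118), FG normoxia (8.93 ± 1.55) and L3.6pl normoxia (8.30 ± 1.26, each SD, n = 3 arrays), and every neighbouring pair overlapped.

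The second STC2 probe set (203439_s_at) repeated the high normoxic replicate 1 in both lines, at 7.91 against 6.35 and 5.94 in FG and at 7.66 against 6.10 and 6.12 in L3.6pl. Its hypoxic arrays were at 8.25, 8.60 and 8.58 in FG and at 9.07, 9.57 and 8.17 in L3.6pl. Here all hypoxic arrays lay above all normoxic ones, by 1.74 on average in FG and 2.31 in L3.6pl. The mean level of 12 genes of the integrated stress response moved with the same arrays: it was 10.28, 8.85 and 8.98 in FG normoxia and 9.83, 8.95 and 8.99 in L3.6pl normoxia. In hypoxia that mean was 9.75, 9.74 and 9.79 in FG and 9.38, 9.68 and 9.00 in L3.6pl. Its part in the STC2 values was not tested.

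**Figure D1:**
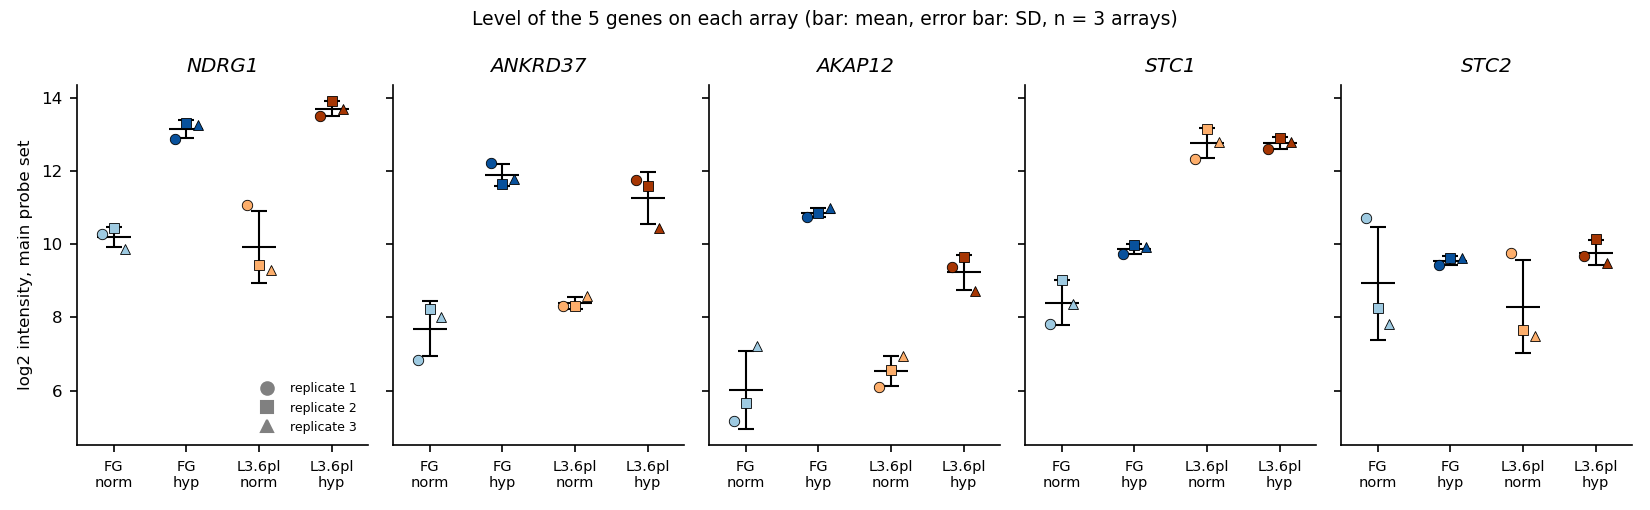
Log2 intensity (vertical axis) of the main probe set of each gene on each array, by line and oxygen level; the symbol shape gives the replicate number, the bar the mean and the error bar the SD of 3 arrays. STC1 in L3.6pl is at 12.76 in both oxygen levels, and STC2 has replicate 1 high in normoxia in both lines; heights are not comparable between genes.

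**Figure D2:**
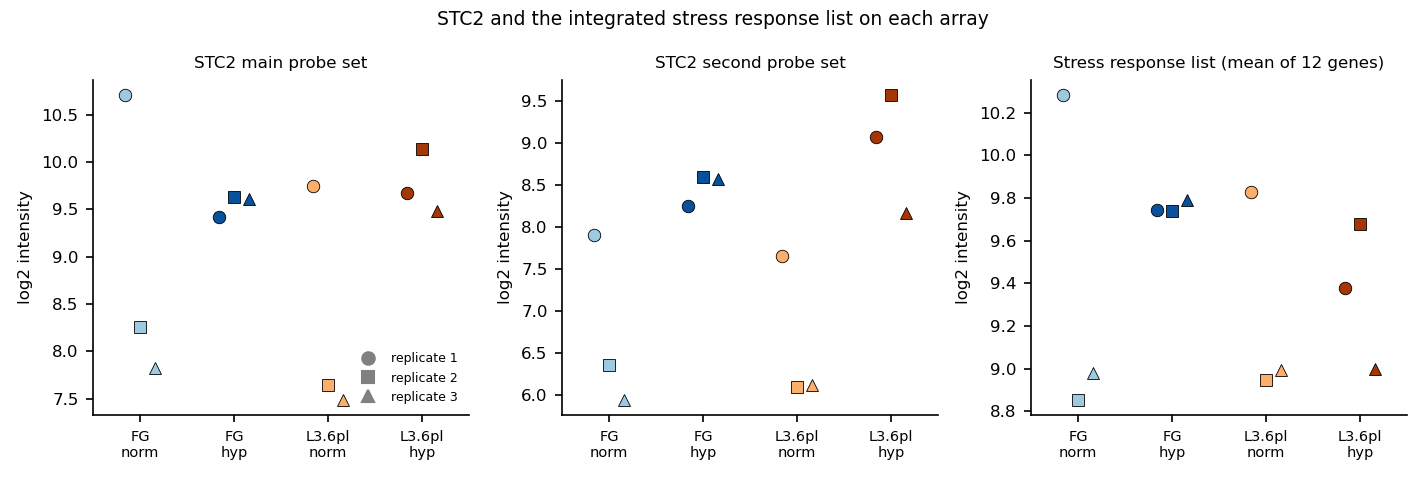
Log2 intensity of the 2 STC2 probe sets and the mean of the 12 integrated stress response genes on each array, by group, with the symbol shape giving the replicate number. Replicate 1 is the highest normoxic array in all 3 panels and in both lines, and the vertical axes differ between panels.

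Across the 5 genes, all hypoxic arrays exceeded all normoxic arrays for 4 in FG, where 10.9% of all genes did so, and for 3 in L3.6pl, where 11.5% did. These counts use the contrast on which the genes were proposed, and nothing is read from them. By probe set the counts were 10 of 13 in FG and 8 of 13 in L3.6pl. The probe sets outside them were 242548_x_at, 1555395_at and 203438_at in FG, and in L3.6pl the same 3 together with 204595_s_at and 204596_s_at.

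**Figure D3:**
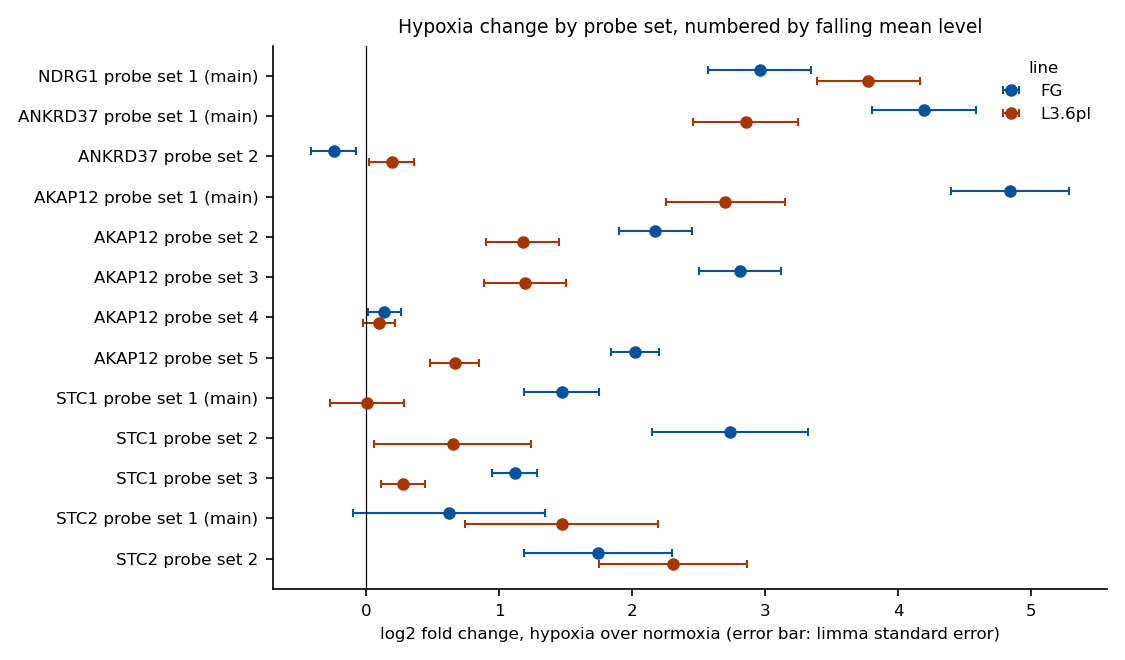
Hypoxia over normoxia as log2 fold change (horizontal axis) for each of the 13 probe sets in FG and L3.6pl, with limma's standard error, the sets of a gene being numbered by falling mean level. The main AKAP12 set changes by 4.84 in FG and 2.70 in L3.6pl, while ANKRD37 set 2 and AKAP12 set 4 lie near 0.

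Between the lines in normoxia, STC1 was higher in L3.6pl by 4.35 (SE 0.277), or 20.4-fold (adjusted p = 6.03e-06 over all genes, limma with Benjamini-Hochberg adjustment), and was the one gene of the 5 called at an adjusted p below 0.05. Of all genes 10.7% were called, and the STC1 difference was the twelfth largest rise. The other STC1 probe sets differed by 4.65 (SE 0.588, adjusted p = 0.000787 over all probe sets, limma) and 2.80 (SE 0.166, adjusted p = 4.29e-06, limma). Over the fits that leave out 1 array the STC1 difference ran from 4.06 to 4.67.

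The normoxic differences of the other 4 genes did not pass. They were -0.27 for NDRG1 (95% interval -1.12 to 0.58, adjusted p = 0.792), 0.72 for ANKRD37 (-0.14 to 1.58, 0.333), 0.52 for AKAP12 (-0.46 to 1.5, 0.592) and -0.63 for STC2 (-2.22 to 0.96, 0.717), all from limma. For NDRG1 the difference was -0.84 (adjusted p = 0.0280, limma) without replicate 1 of L3.6pl normoxia, the array that stood high, and 0.051 without replicate 3 of that group. For AKAP12 it was 1.11 (adjusted p = 0.0470, limma) without replicate 3 of FG normoxia. Same-numbered arrays of the lines deviate together at each oxygen level, and with that pairing as a block STC2 was lower in L3.6pl (-0.63, adjusted p = 0.0160, limma). This block was added after seeing the data, and with it 23.1% of all genes were called in place of 10.7%. With the planned replicate block over all arrays the STC2 adjusted p was 0.595 (limma). Without replicate 1 of FG normoxia, and with no block, the STC2 difference was 0.25. The STC2 differences within the numbered pairs were -0.95, -0.61 and -0.33 on the main probe set and -0.25, -0.25 and 0.18 on the second.

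In hypoxia, AKAP12 was lower and STC1 higher in L3.6pl. AKAP12 differed by -1.62 (SE 0.443), FG being 3.07-fold higher (adjusted p = 0.0293, limma). STC1 differed by 2.89 (SE 0.277), or 7.40-fold (adjusted p = 6.69e-05, limma). These 2 of 5 genes stand beside 16.7% of all genes called. Of the other AKAP12 probe sets, 3 were also lower in L3.6pl, 227530_at by -1.15 (adjusted p = 0.0183), 227529_s_at by -1.66 (0.00512) and 231067_s_at by -1.36 (0.000736, all limma over all probe sets). The flat set 1555395_at differed by -0.08 (adjusted p = 0.767). In L3.6pl hypoxia 227529_s_at was at 4.55 and 231067_s_at at 3.82, against 3.94 for the flat set. Their differences thus rest on values near the bottom of the intensity range.

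The AKAP12 call in hypoxia depended on the arrays. Its adjusted p (limma) was 0.0696, 0.0815 and 0.0776 without replicates 1, 2 and 3 of FG hypoxia, 0.0589 without replicate 1 of L3.6pl hypoxia and 0.0930 without its replicate 3, with differences from -1.36 to -1.82 over all 12 such fits. The other STC1 probe sets were higher in L3.6pl in hypoxia by 2.56 (adjusted p = 0.0152) and 1.97 (4.28e-05, both limma). NDRG1 was 0.55 higher in L3.6pl with no overlap of arrays (95% interval -0.30 to 1.40, adjusted p = 0.412), ANKRD37 differed by -0.62 (-1.48 to 0.24, 0.349), and STC2 differed by 0.21 (-1.38 to 1.80, 0.898, all limma).

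None of the 5 genes passed the test of whether the hypoxia change itself differed between the lines, in which 0.0253% of all genes (5 of 19775) were called by limma and 1427 had an unadjusted p below 0.05. AKAP12, STC1 and ANKRD37 were among those 1427. This contrast is built from the hypoxia changes that were in view when the genes were proposed. Its p-values for the 5 genes are therefore a description and carry no independent test. The change in L3.6pl minus that in FG was -2.14 for AKAP12 (95% interval -3.52 to -0.76, adjusted p = 0.371), -1.46 for STC1 (-2.33 to -0.60, 0.315) and -1.34 for ANKRD37 (-2.56 to -0.12, 0.621, all limma). Without the 3 arrays that stand apart it was -1.67 for AKAP12, -1.40 for STC1 and -0.54 for ANKRD37, with adjusted p-values of 0.318, 0.132 and 0.538 (limma). It was 0.82 for NDRG1 (-0.39 to 2.02, 0.832) and 0.85 for STC2 (-1.40 to 3.09, 0.935), and for STC2 it was -0.041 without replicate 1 of FG normoxia. With same-numbered arrays of the lines paired within each oxygen level, AKAP12 (adjusted p = 0.0271, limma) and STC1 (0.00691) passed, and 703 genes in all were called. That pairing was added after seeing the data. Without replicate 3 of FG normoxia AKAP12 was at -2.73 (adjusted p = 0.0448, limma).

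**Figure D4:**
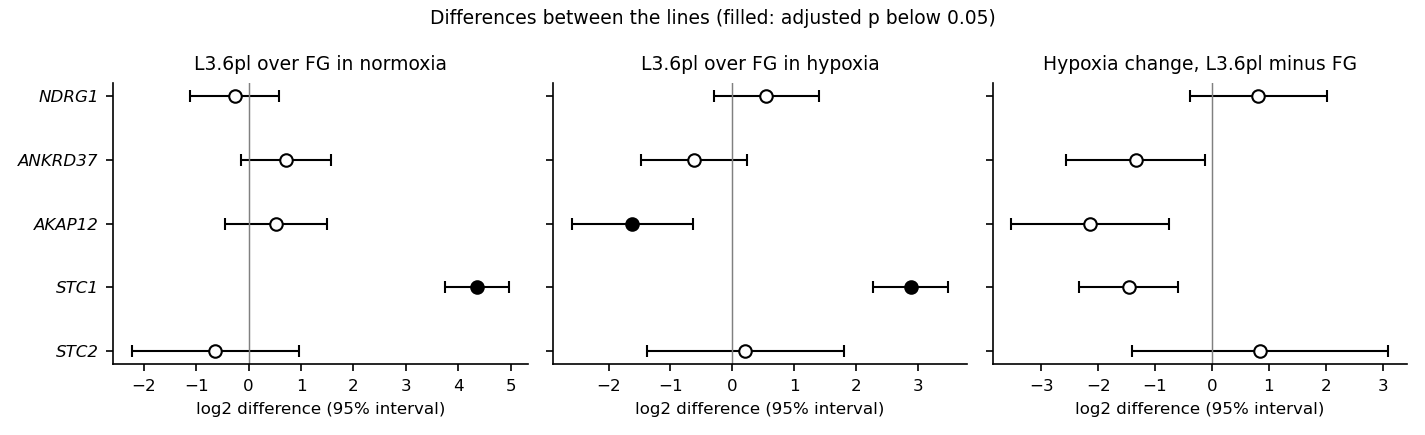
Log2 differences between L3.6pl and FG for each gene in normoxia, in hypoxia and in the hypoxia change, with 95% intervals from limma; filled points have an adjusted p below 0.05. STC1 is filled at 4.35 and 2.89, AKAP12 is filled at -1.62, and no point is filled for the hypoxia change.

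MYCN was lower in hypoxia in FG and lower in L3.6pl than in FG. MYCN, a transcription factor known to repress NDRG1, was the single one of 7 measured genes of that list to pass in FG hypoxia, falling by 1.76 (SE 0.286, adjusted p = 0.00361, limma), against a background of 4.24% of all genes called higher and 6.47% called lower. None of the 7 passed in L3.6pl hypoxia, where 3.89% of all genes were called higher and 2.97% lower. Compared with FG, MYCN was lower in L3.6pl by -3.18 in normoxia (SE 0.286, adjusted p = 5.62e-05, limma) and -1.51 in hypoxia (SE 0.286, adjusted p = 0.00442, limma). Both hypoxia calls of MYCN were lost with the mean of all probe sets. SGK1, the kinase that phosphorylates NDRG1, was lower in L3.6pl in normoxia (-1.61, SE 0.314, adjusted p = 0.00779, limma). MYC differed by -0.22 in FG and 0.08 in L3.6pl with hypoxia, and neither passed. The list's medians were -0.13 and 0.048, against -0.026 and -0.022 over all genes.

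NDRG2, NDRG3 and NDRG4, the other members of the NDRG1 family, did not pass with hypoxia in either line. Without the 3 arrays that stand apart 2 of the family were called lower in L3.6pl. There the share of all genes called in either direction went from 6.86% to 21.1%. NDRG3 differed by -0.41 in FG and -0.33 in L3.6pl, and NDRG2 by -0.38 and -0.62. In normoxia NDRG2 was higher in L3.6pl by 0.78 (SE 0.190, adjusted p = 0.0244, limma), with an adjusted p that rose above 0.05 when single normoxic arrays were left out.

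Of the 15 measured A-kinase anchoring proteins beside AKAP12, 2 rose and 1 fell with hypoxia in FG, where 4.24% of all genes were called higher and 6.47% lower. Those that rose were MAP2 (0.71, SE 0.102, adjusted p = 0.00196, limma), a microtubule protein that binds protein kinase A, and AKAP10. In L3.6pl 2 rose and none fell, where 3.89% of all genes were called higher and 2.97% lower. Among the 2 was EZR, the membrane linker ezrin (0.96, SE 0.166, adjusted p = 0.00742, limma), a call lost with the mean of all probe sets. Without the 3 arrays that stand apart 4 rose and 1 fell in FG, and 3 rose in L3.6pl. Leaving these arrays out moved the share of all genes called in either direction from 10.7% to 19.6% in FG and from 6.86% to 21.1% in L3.6pl. Medians were -0.025 in FG and 0.0013 in L3.6pl. Between the lines in hypoxia AKAP12 and MAP2 (-0.94, SE 0.102, adjusted p = 0.000155, limma) were lower in L3.6pl, and none of the 16 with AKAP12 passed in normoxia.

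Of 10 genes for protein kinase A subunits and inhibitors, PKIB, a protein kinase A inhibitor, rose in FG hypoxia (1.70, SE 0.330, adjusted p = 0.00871, limma), the catalytic subunit gene PRKACB fell with an adjusted p of 0.0408 (limma) that was not held when single arrays were left out, and none passed in L3.6pl. In hypoxia the regulatory subunit gene PRKAR2B (-2.52, adjusted p = 0.00455), PKIA (-1.60, 0.00704) and PKIB (-2.30, 0.000839) were lower in L3.6pl than in FG and PRKACA was higher (0.55, 0.0115, all limma), the last not with the mean of all probe sets. PKIA was also lower in normoxia (-2.32, adjusted p = 0.00113, limma). Of all genes 16.7% were called between the lines in hypoxia and 10.7% in normoxia. With hypoxia 4.24% were called higher and 6.47% lower in FG, and 3.89% higher and 2.97% lower in L3.6pl. Of 8 measured partners and cAMP genes linked to AKAP12 none passed in FG hypoxia, and in L3.6pl PDE4D, a cAMP phosphodiesterase, rose by 0.92 (SE 0.219, adjusted p = 0.0303, limma), a call that was lost when some single L3.6pl arrays were left out.

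Of the 7 measured genes of the stanniocalcin and pappalysin axis beside STC1 and STC2, none passed with hypoxia in either line (limma). Without the 3 arrays that stand apart 1 was called higher in FG and 2 in L3.6pl. The share of all genes called in either direction then went from 10.7% to 19.6% in FG and from 6.86% to 21.1% in L3.6pl. IGFBP4, the binding protein that PAPPA cleaves, was higher in L3.6pl by 0.86 in normoxia (SE 0.224, adjusted p = 0.0324) and 1.31 in hypoxia (SE 0.224, adjusted p = 0.00247, both limma), and the normoxic call was lost when some single arrays were left out. PAPPA, the protease itself, was lower in L3.6pl in hypoxia by -0.39 (SE 0.0852, adjusted p = 0.00952, limma).

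Of 12 genes of calcium entry and phosphate transport, SLC20A1, a phosphate transporter, rose by 0.73 in FG (SE 0.135, adjusted p = 0.00685) and 0.87 in L3.6pl (SE 0.135, adjusted p = 0.00409, both limma), and no other passed with hypoxia. The SLC20A1 calls were lost with the mean of all probe sets. SLC34A2, another phosphate transporter, was lower in L3.6pl in normoxia (-2.07, adjusted p = 6.42e-05) and in hypoxia (-1.55, adjusted p = 0.000309, both limma). ORAI3, a calcium channel subunit, was higher in L3.6pl in hypoxia (1.75, adjusted p = 0.0106, limma). Between the lines, 1 of the 12 genes was called higher in L3.6pl and 3 lower in normoxia. In hypoxia 3 were called higher and 3 lower. Of all genes 10.7% were called between the lines in normoxia and 16.7% in hypoxia. With hypoxia 4.24% of all genes were called higher in FG and 3.89% in L3.6pl.

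Of the 12 integrated stress response genes, 3 rose and none fell in FG, and 1 rose and 1 fell in L3.6pl. Without the 3 arrays that stand apart the counts were 7 and 1 in FG and 5 and 2 in L3.6pl, while the share of all genes called in either direction went from 10.7% to 19.6% in FG and from 6.86% to 21.1% in L3.6pl. VLDLR, a lipoprotein receptor, rose in both lines, by 1.84 (SE 0.326, adjusted p = 0.00541) and 2.06 (SE 0.326, adjusted p = 0.00457, both limma). ATF3, a stress-induced transcription factor, rose by 2.47 in FG (SE 0.143, adjusted p = 1.94e-05, limma). ATF4 differed by 0.63 in FG and 0.54 in L3.6pl without passing. The list's medians were 0.53 and 0.18.

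Of 29 measured targets of the hypoxia-inducible factors, 24 rose in FG and 21 in L3.6pl and none fell, with medians of 1.87 and 1.76. Over all genes 4.24% were called higher in FG and 3.89% in L3.6pl, with medians of -0.026 and -0.022. The list was chosen with earlier results of these data known. LDHA, a glycolytic enzyme, differed by 0.63 in L3.6pl without passing. Among the factors and their hydroxylases EGLN3 rose by 2.38 in FG (SE 0.278, adjusted p = 0.000638) and 3.43 in L3.6pl (SE 0.278, adjusted p = 0.000171, both limma). EPAS1 was higher in L3.6pl in hypoxia by 1.76 (SE 0.384, adjusted p = 0.00967) and HIF1A in normoxia by 0.89 (SE 0.142, adjusted p = 0.00249, both limma).

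Over the 12 arrays, the genes most like each of the 5 were found by Pearson's r of log2 values among 9034 genes whose highest group mean was at least 7, which is a description over arrays that share the same 4 groups. For NDRG1 they were CCNG2 (0.978), ANO6 (0.977), MXI1 (0.974), PFKFB4 (0.972) and PFKP (0.971). For ANKRD37 they were POFUT4 (0.990), ADM (0.987), ERO1A (0.983), PFKFB3 (0.982) and MSANTD3 (0.980), and for AKAP12 F3 (0.990), RIT1 (0.982), MSANTD3 (0.980), GADD45B (0.980) and FEM1C (0.979). MSANTD3 was thus on both of those lists. For STC1 they were ALDH1A3 (0.967), S100A2 (0.961), PI3 (0.955), UCK1 (0.950) and KRT13 (0.949), and for STC2 PLXNB2 (0.974), IGF1R (0.963), ZNF770 (0.945), MANBA (0.939) and PTPRF (0.938). IGF1R encodes the receptor of the growth factors that the pappalysins release. Among the 5 themselves ANKRD37 and AKAP12 were the closest pair (0.961), NDRG1 with ANKRD37 gave 0.886 and NDRG1 with STC2 0.659, and STC1 gave at most 0.247 with any other.

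Of the nearest measured protein-coding genes on each side, those of STC2 (NKX2-5 and BOD1) passed in no comparison. Beside STC1, SLC25A37, a mitochondrial iron importer, rose in FG hypoxia by 1.97 (SE 0.286, adjusted p = 0.00204, limma). It rose in L3.6pl by 1.13 (SE 0.286, adjusted p = 0.0409, limma), with an adjusted p of up to 0.159 when single arrays were left out. ADAM28, the neighbour on the other side and a membrane protease, was higher in L3.6pl by 1.22 in normoxia (SE 0.248, adjusted p = 0.00991) and 2.31 in hypoxia (SE 0.248, adjusted p = 0.000142, both limma). The neighbours of ANKRD37 (LRP2BP and UFSP2) and AKAP12 (MTHFD1L and ZBTB2) showed smaller hypoxia changes in FG. Of these, LRP2BP (0.48, adjusted p = 0.0346) and MTHFD1L (0.76, adjusted p = 0.0135, both limma) passed with all arrays and not when some single arrays were left out. Both were dim, with group means from 3.82 to 4.31 for LRP2BP and from 3.63 to 4.39 for MTHFD1L, against a median level of 6.30 over all genes. In hypoxia LRP2BP was lower in L3.6pl than in FG (-0.42, adjusted p = 0.0450, limma; up to 0.132 when single arrays were left out). Neither neighbour of NDRG1 (CCN4 and ST3GAL1) passed with hypoxia. ST3GAL1, a sialyltransferase, was higher in L3.6pl by 0.97 in normoxia (adjusted p = 0.0498) and 1.13 in hypoxia (adjusted p = 0.0180, both limma), and these adjusted p-values reached 0.179 and 0.0700 when single arrays were left out.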

How the data were processed

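Gene expression was measured on 12 arrays, 3 in each of 4 groups. The authors deposited linear normalized intensity values. Per the submitters' processing notes these come from RMA, and its version and the step back to a linear scale are not stated there. Here each intensity as deposited by the authors was turned into log2, and since array medians ran from 39.1 to 41.4 nothing more was scaled. The platform annotation named the probe sets, 41091 of 54675 having exactly 1 gene, and the one with the greatest average stood for each of 19775 genes.

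One linear model with 4 group means was fitted over all genes by limma (3.58.1, R 4.3.3), and eBayes moderated it with 8 residual and 2.72 prior degrees of freedom. Calls needed an adjusted p below 0.05 (Benjamini-Hochberg, over all genes). The steps were tested on simulated data. That simulation gave each array independent noise, so it leaves out the joint deviations of same-numbered arrays described below. The number of arrays limits the precision, and the labels do not say whether replicates were separate cultures, so p-values measure only the spread between these samples.

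The members and lists were chosen with earlier results of these data known. From each list up to 4 passing genes (lowest adjusted p first) and up to 2 others (highest mean first) could be named, and not all of these are described. The 5 most similar genes by Pearson's r and the nearest measured protein-coding neighbours were named too. Deviations of same-numbered arrays from their group means correlated between the lines at 0.735, 0.528 and 0.675 in normoxia and 0.358, 0.444 and 0.462 in hypoxia. Between oxygen levels the correlations ran from -0.239 to -0.0373 for replicates 1 and 2, and from 0.244 to 0.425 for replicate 3. The pairing of the lines within each oxygen level comes from these data, not from a label. Alternatives changed normalization, log transform, filter, probe-set rule, moderation, array weights, pairing, arrays and threshold.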

Additional observations from a re-analysis of the deposited data

Results flagged for a closer look

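ATF3, a stress-induced transcription factor of the integrated stress response list, differed between the lines in its hypoxia change: the change in L3.6pl minus that in FG was -2.30 on the log2 scale (SE 0.202, adjusted p = 0.00259, limma). In FG it rose by 2.47. The call was lost with the mean of all probe sets (-2.24, adjusted p = 0.0754, limma).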

How the results depend on the processing

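Of 615 values of the 5 genes recomputed under alternatives, 591 kept their direction and side of the threshold (or stayed within the replicate spread), 10 gained a call, 6 lost one, 5 moved beyond the replicate spread and 3 reversed. The 591 include hypoxia changes that an alternative could not move, such as those of 1 line when an array of the other line was left out. A hypoxia change also counted as kept when it shifted by less than the replicate SD. That SD was 1.10 for STC2 in FG, whose change kept this label while running from 0.069 to 1.51. The 3 values that reversed were differences between the lines and came from leaving out 1 array, whose same-numbered partner stayed in the fit. Over such fits the NDRG1 difference between lines in normoxia ran from -0.84 to 0.051 (above 0 without replicate 3 of L3.6pl normoxia), and that of STC2 from -1.36 to 0.25. The STC2 difference in hypoxia change ran from -0.041 to 1.57, and both STC2 reversals came without replicate 1 of FG normoxia. Where 1 gene was called between lines in normoxia, array weights gave 3 and leaving out the 3 arrays that stand apart gave 2. The share of all genes called there was 10.7% in the main fit, 33.5% with array weights and 13.1% without those arrays. The adjusted p below 0.01 left 1 of the 2 calls in hypoxia, and 8.69% of all genes in place of 16.7%. For the difference in hypoxia change array weights gave 1 call instead of 0, and called 2.13% of all genes instead of 0.0253%. Leaving out each array in turn gave 1 to 2 calls in normoxia, 1 to 2 in hypoxia and 0 to 1 for the difference in hypoxia change. Over all genes these fits called 6.34% to 13.3%, 10.8% to 19.3% and 0.0101% to 0.116%. The STC1 hypoxia change in L3.6pl (0.0031) lay near 0 and took either sign. It ran from -0.27 with array weights to 0.31 with the mean of all probe sets, and reached 0.20 without 1 array. The causes were not tested.

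A replicate block over all 12 arrays, as planned, gave 1, 2 and 0 calls for the 3 comparisons, the same counts as without it. With this planned block 14.2%, 21.4% and 0.0657% of all genes were called. The replicate block within each oxygen level, added after seeing the data, gave 2 calls in normoxia and 2 for the difference in hypoxia change, and changed no call in hypoxia. Over all genes it raised the calls from 2116 to 4576, from 3310 to 5935 and from 5 to 703, and array weights gave 6623, 4604 and 421. The mean of all probe sets lowered the hypoxia changes in FG and L3.6pl to 1.97 and 1.52 for ANKRD37 and to 2.39 and 1.17 for AKAP12, whose 4 other probe sets all had smaller changes than the main one. With array weights the STC1 change in FG was 0.998. Probe sets near the bottom of the intensity range, flat or not, limit what can be said of the transcripts they target.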
